A study of Mus musculus with 123 samples.

Results

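Slc6a4, Lipn, Ecel1, Anxa1, Ankrd1, Tgfbi and Mylk4 are 7 of the 24134 genes in the expression tables of dorsal root ganglion (DRG) neurons after sciatic nerve transection (SNT). They were chosen by name because their levels were at or near 0 on the control side and higher on the SNT side in single cells and in pooled neurons. The side differences of these 7 genes are therefore given as a description, without a test. The right sciatic nerve of 2-month-old mice was cut, and DRG neurons from the opposite, uncut side served as the control. At day 3 the animals were female F1 offspring of CAST/Eij males and C57BL/6 females, and 48 SNT-side and 22 control-side neurons were isolated and sequenced with reads of 50 bp. At day 7 the animals were C57BL/6 mice of both sexes, with 33 SNT-side and 14 control-side neurons and reads of 75 bp. Day, strain and read length therefore cannot be told apart. Males were sampled at day 7 alone, so sex also differs between the days in part. At day 3 pooled neurons were also sequenced, as 3 libraries per side that are parts of 1 lysate per side, so their spread is technical. All libraries were made with Smart-seq2, and SNT is the only treatment in any group.

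The sensory neurons of the DRG send an axon to the periphery, and cutting it starts a transcriptional response in the cell body that includes the transcription factor Atf3, widely used as a marker of axotomized neurons. The 7 genes belong to different families. Slc6a4 encodes the serotonin transporter of serotonergic neurons and platelets, Lipn an enzyme of the acid lipase family best known from skin, and Ecel1 a membrane metallopeptidase related to neprilysin that is also called damage-induced neuronal endopeptidase. Mylk4 belongs to the myosin light chain kinase family. Tgfbi is a secreted matrix protein with fasciclin domains that is induced by TGF-beta and binds integrins, Anxa1 (annexin A1) binds phospholipids and, outside the cell, formyl peptide receptors, and Ankrd1 is a muscle ankyrin repeat protein known from heart and as a target of the YAP pathway.

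Slc6a4 and Lipn were expressed in more day 7 SNT-side cells than the other 5 genes. The 250 bases before their RefSeq start sites (build GRCm38.p6, plus strand) are shown for reference. They lie at chr11:76998347-76998596 for Slc6a4 and at chr19:34067108-34067357 for Lipn. Capitals mark the letters of a motif searched on both strands, GGAATG (TEAD factors) in Slc6a4 and TGANTCA (AP-1 factors) in Lipn.
Slc6a4 promoter: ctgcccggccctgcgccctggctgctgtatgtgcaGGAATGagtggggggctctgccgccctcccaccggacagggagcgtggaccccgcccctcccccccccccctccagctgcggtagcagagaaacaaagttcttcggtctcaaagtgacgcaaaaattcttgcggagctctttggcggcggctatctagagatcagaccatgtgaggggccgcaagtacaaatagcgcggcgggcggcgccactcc
Lipn promoter: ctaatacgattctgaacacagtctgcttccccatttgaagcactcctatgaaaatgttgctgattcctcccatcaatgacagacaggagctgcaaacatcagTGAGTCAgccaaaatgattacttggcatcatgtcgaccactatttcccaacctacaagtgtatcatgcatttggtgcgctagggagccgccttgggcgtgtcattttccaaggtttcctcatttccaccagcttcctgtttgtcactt
Windows of all 7 genes were found in the RefSeq table. TGANTCA was in the window of Lipn alone among the 7, against 6.75% of the 32851 windows of this length, and GGAATG was in those of Slc6a4, Anxa1 and Ankrd1, against 12.6%. TATAAA was in the window of Anxa1 (12.4% of all windows), and TGACGTCA was in none of the 7 (1.55%). Slc6a4 and Tgfbi had 18 and 15 CG dinucleotides in the window and the other 5 genes had 2 to 7, against a median of 6 over all windows. Lipn, Anxa1 and Ankrd1 are on chromosome 19, Tgfbi and Mylk4 on chromosome 13, Slc6a4 on chromosome 11 and Ecel1 on chromosome 1. The letters are of the C57BL/6J reference, while the day 3 animals also carried a CAST/Eij genome.

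The authors removed 11 day 3 cells as outliers, 7 of the SNT side and 4 of the control side, and 41 and 18 cells were kept. Library totals of the kept cells were 611647 to 1849130 counts for day 3 SNT, 277390 to 1368842 for day 3 control, 261351 to 965292 for day 7 SNT and 510014 to 1018545 for day 7 control, and 563462 to 2003817 for the pooled libraries. Levels are CPM, the count divided by the library total and multiplied by 1e6, which are comparable for 1 gene between libraries but not between genes of different length. A cell was taken to express a gene at 10 CPM or more. No label names an animal, so the cells of 1 side and day are 1 sample, SDs are over cells, and intervals are exact 95% binomial intervals that cover counting error only. Where no cell expressed a gene, the limit given is instead 3 cells of the number of cells. Neuronal markers were present throughout, with all 7 listed neuron genes detected in every group. The SNT-side cell s3.46 held neutrophil transcripts (S100a8 at 1710 CPM, S100a9 at 1297 CPM) and the SNT-side cell s7.26 held fewer (340 and 357 CPM), and values that rest on them are given with and without them.

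In pooled neurons of day 3, all 7 genes were at or close to 0 on the control side and were present in each SNT-side library. Slc6a4 was at 87.3, 80.1 and 54.9 CPM in the 3 SNT-side libraries and had no count in the 3 control-side libraries, which is at least 51.2-fold higher when set against a floor of 3 counts over the control group. Lipn was at 54.1, 52.2 and 46.4 CPM against no count, at least 35.8-fold higher. The lipase thus had the smallest relative spread between libraries of the 3 genes above 45 CPM in every SNT-side library. Ecel1 was at 66.4, 49.6 and 47.4 CPM against 2.75, 1.19 and 1.77 CPM, a ratio of 29.02 (95% counting interval 11.2 to 107), and so was the only one of the 7 with reads in every control library.

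Anxa1 was at 47.8, 28.7 and 27.9 CPM on the SNT side and had 1 count in 1 control library, a ratio of 74.6 whose interval ran from 13.2 to 2963. The 3 remaining genes were lower. Tgfbi was at 13.7, 16.5 and 13.97 CPM and Ankrd1 at 16.7, 7.83 and 11.98 CPM, both without a control count, at least 10.3-fold and at least 8.97-fold higher. Mylk4 was at 12.5, 9.59 and 10.9 CPM against about 1 count in 1 control library, a ratio of 22.2 (4.10 to 959). In all 7 the SNT-side libraries lay above every control library, which was so for 21.1% of the 13509 genes tested. That count of 7 was fixed by the choice of the genes.

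**Figure D1:**
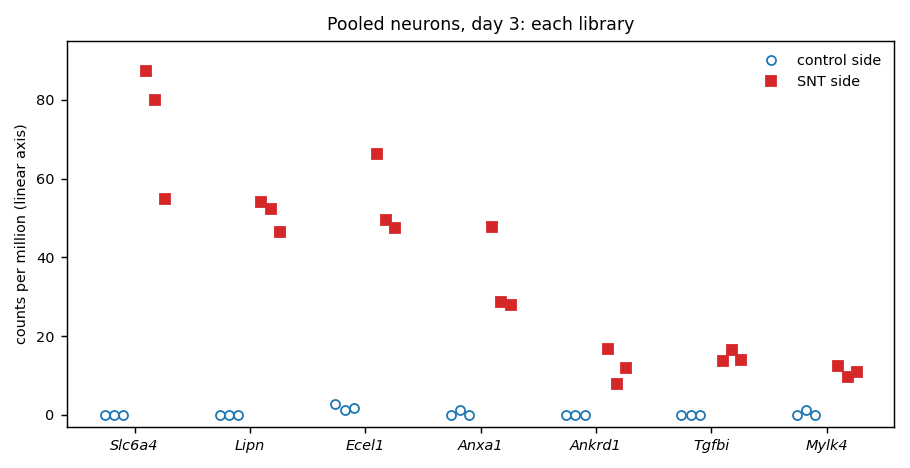
Level of the 7 genes in each pooled library of day 3, in CPM on a linear axis; open circles are the 3 control-side libraries and filled squares the 3 SNT-side libraries. Control values lie between 0 and 2.75 CPM, and SNT-side values run from 7.83 CPM (Ankrd1) to 87.3 CPM (Slc6a4).

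The sides of the pooled libraries differed in other respects. The summed level of 10 glial markers, all detected on both sides, was 12668 to 15388 CPM in control libraries and 6314 to 7124 CPM in SNT libraries. Macrophage markers summed to 0 to 4.77 CPM in control and 10.4 to 15.4 CPM in SNT libraries, with C1qc and Ptprc at 0 in every SNT library, and neutrophil markers summed to at most 2.61 CPM, with S100a9, Retnlg, Ngp, Ltf and Mmp8 at 0 in every SNT library. Their part in the levels of the 7 genes was not tested. In pooled material, more cells that express a gene and more RNA per cell cannot be told apart. The single cells separate these.

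In the kept cells of day 3, the mean level of each of the 7 genes was higher on the SNT side, and in each the SD over cells was larger than the mean. A mean over 4 times as high on the SNT side was seen for 5.29% of the genes expressed in at least 1 cell, and for all 7 here, by choice. Slc6a4 was at 0, 18.6 and 1442 CPM (lowest, median, highest) in the 41 SNT-side cells and at 0, 0 and 5.56 CPM in the 18 control cells. The transporter was expressed in 21 of 41 SNT-side cells (51.2%, interval 35.1% to 67.1%) and in no control cell, which allows a share of up to 16.7% of such cells. Its mean was 150 ± 296 CPM (SD, n = 41 cells) against 0.660 ± 1.60 CPM (n = 18 cells).

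Ecel1 was, at 10 CPM, expressed in the most SNT-side cells of the 7. At a level of 1 CPM the order differed, with Mylk4 in 80.5%, Slc6a4 in 78.0%, Anxa1 in 68.3% and Ecel1 in 63.4% of the 41 cells. That level did little to separate the sides for Mylk4, whose median over the 18 control cells was 2.62 CPM. Most control cells thus also passed 1 CPM for Mylk4. The control medians of Slc6a4, Anxa1 and Ecel1 were 0 CPM. The peptidase was at 0, 14.3 and 979 CPM in SNT-side cells, was expressed in 23 of 41 (56.1%, 39.7% to 71.5%), and did not pass 3.191 CPM in any control cell. Its mean was 206 ± 282 CPM against 0.379 ± 0.849 CPM. Anxa1 reached the highest single value, with 0, 4.98 and 4867 CPM in SNT-side cells and 16 of 41 expressing cells (39.02%, 24.2% to 55.5%). Its mean was 371 ± 1016 CPM against 1.54 ± 4.25 CPM in control cells, where 1 of 18 cells, at 18.0 CPM, passed 10 CPM. The 3 highest cells held 72.7% of its summed CPM, and without s3.46, which was at 607 CPM, the mean was 366 ± 1028 CPM and 15 of 40 cells expressed it.

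Tgfbi was at 0, 0.687 and 911 CPM on the SNT side and was expressed in 15 of 41 cells (36.6%, 22.1% to 53.1%). Its mean was 115 ± 217 CPM against 2.20 ± 5.97 CPM in control cells, of which 1 was at 25.2 CPM. Mylk4 was at 0, 3.361 and 616 CPM and was expressed in 11 of 41 SNT-side cells (26.8%, 14.2% to 42.9%) and in 1 of 18 control cells, at 10.9 CPM. The kinase was the least silent of the 7, since 15 of 18 control cells held some of its signal, with a control mean of 3.3204 ± 3.015 CPM against 79.8 ± 165 CPM on the SNT side. Some of its counts were not whole, since RSEM divides reads that match several genes, so its low values are the least certain.

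Lipn and Ankrd1 passed 10 CPM in the fewest cells. Lipn had a median of 0 and a highest value of 163 CPM on the SNT side, was expressed in 4 of 41 cells (9.76%, 2.72% to 23.1%), and had no count in any of the 18 control cells. At 1 CPM the share was 31.7%. Ankrd1 had a median of 0 and a highest value of 140 CPM, was expressed in 6 of 41 cells (14.6%, 5.57% to 29.2%), and likewise had no control count. The highest cell held 49.9% of the summed CPM of Lipn and 55.2% of that of Ankrd1. Summed over cells, Lipn was at least 49.8-fold and Ankrd1 at least 32.9-fold higher on the SNT side.

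**Figure D2:**
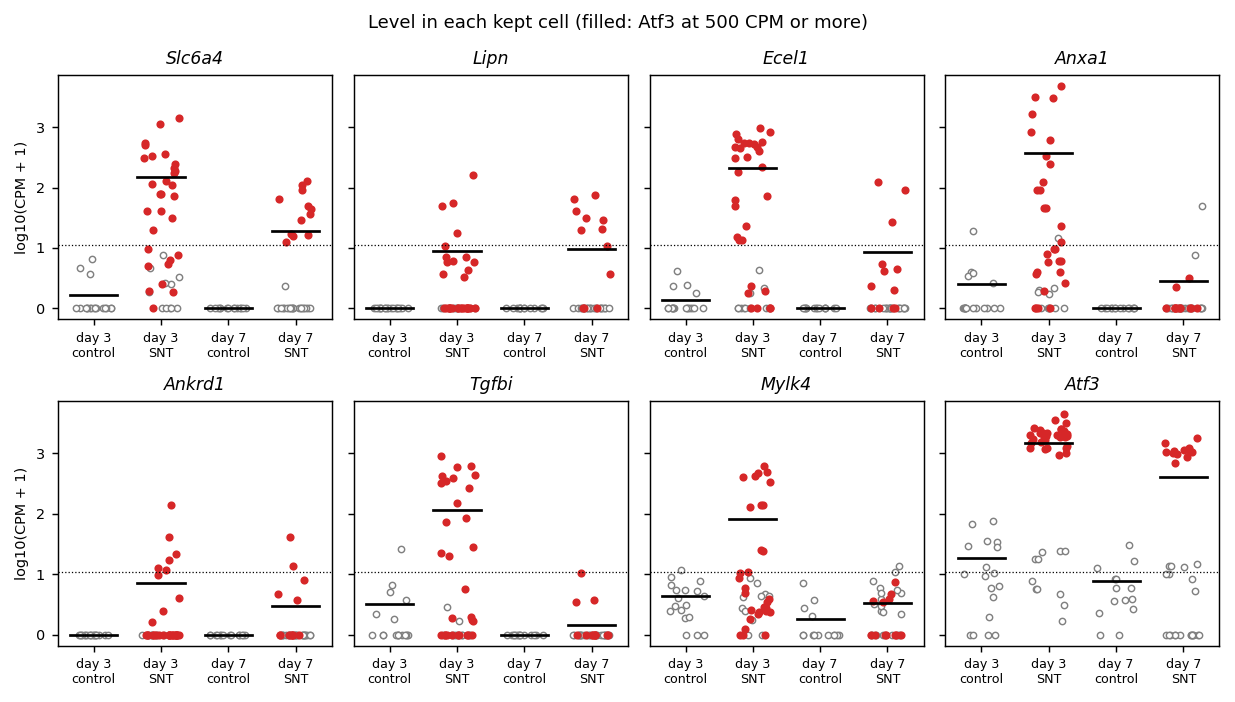
Level of the 7 genes and of Atf3 in each kept cell, as log10(CPM + 1), by day and side; red points are cells with Atf3 at 500 CPM or more, open points the other cells, bars the mean CPM of the group, and the dotted line 10 CPM. At day 3 nearly all points above the line are red, and at day 7, of the 7 genes, only Slc6a4 and Lipn have more than 3 points above it.

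The levels of the 7 genes in single cells were next set beside that of Atf3. Atf3 divided the SNT-side cells into separate ranges, with 30 of 41 day 3 cells at or above 951 CPM and the other 11 at or below 23.04 CPM, while the highest of the 18 control cells was at 75.7 CPM. A cut at 500 CPM therefore fell in a gap. A larger share of high-Atf3 than of other SNT-side cells expressed a given gene for 33.9% of the 13272 genes expressed in at least 1 SNT-side cell, and for each of the 7. The 21 cells that expressed Slc6a4, the 23 with Ecel1, the 15 with Tgfbi, the 11 with Mylk4, the 6 with Ankrd1 and the 4 with Lipn were all among the 30 cells with high Atf3. Of the 16 cells with Anxa1, 15 were, and the remaining cell, s3.1, was at 13.8 CPM. Expression in high-Atf3 cells and in no other SNT-side cell was seen for 11.7% of these genes, and for 4.00% of the 11388 genes expressed in at least 4 such cells when at least 4 high-Atf3 cells were also asked for. A count of 0 among the 11 low-Atf3 cells allows a share of up to 27.3%. The 7 genes were chosen as higher on the SNT side in these same cells, so their counts by Atf3 are a description and no test.

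In the 30 high-Atf3 cells the share that expressed each gene was 76.7% for Ecel1 (57.7% to 90.1%), 70.0% for Slc6a4 (50.6% to 85.3%), 50.0% for Anxa1 and for Tgfbi (31.3% to 68.7%), 36.7% for Mylk4 (19.9% to 56.1%), 20% for Ankrd1 (7.71% to 38.6%) and 13.3% for Lipn (3.76% to 30.7%). The intervals of neighbours in this order overlapped. None of the 7 was in all high-Atf3 cells. In the 11 low-Atf3 cells of the same side, mean levels were 1.504 CPM for Slc6a4, 0.471 CPM for Ecel1, 1.60 CPM for Anxa1, 0.227 CPM for Tgfbi and 2.83 CPM for Mylk4, with Lipn and Ankrd1 at 0, close to the control means. Within the 30 high-Atf3 cells the level of Atf3 itself followed the members only loosely, with Spearman correlations over these 30 cells, which share 1 sample, from -0.36 for Lipn to 0.49 for Ecel1.

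Among the 30 high-Atf3 cells the 7 genes were not high in the same cells. The cells were described by P2rx3, an ATP-gated channel of nonpeptidergic nociceptors, Nefh, the heavy neurofilament of large myelinated neurons, and Calca, a peptide of peptidergic nociceptors. P2rx3 was at 941 CPM or more in 14 of the 30 cells and at 154 CPM or less in the other 16, and a cut at 500 CPM was set after these values were seen. Since the same cells gave the choice of genes and of the cut, no test was made. The 14 P2rx3-high cells had a mean of 93.7 ± 66.9 CPM of Nefh, against 590 ± 502 CPM in the 16 P2rx3-low cells. Calca was at 65.8 to 946 CPM in the P2rx3-high cells and at 0 to 9267 CPM in the P2rx3-low cells, which were therefore mixed. Its highest P2rx3-low cells, s3.11, s3.27 and s3.43, had Calca at 9267, 2629 and 524 CPM and Nefh at 364, 208 and 86.8 CPM.

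Anxa1, Tgfbi, Mylk4 and Ecel1 were high with P2rx3. Anxa1 was at 0, 288 and 4867 CPM in the 14 P2rx3-high cells, with a mean of 1078 ± 1536 CPM, and at 0, 3.93 and 44.98 CPM in the 16 P2rx3-low cells, with a mean of 7.61 ± 11.4 CPM. The mean was 142 times as high, and 12 of the 14 cells lay above every P2rx3-low cell. Without s3.46 the P2rx3-high mean was 1114 ± 1592 CPM (n = 13 cells).

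Tgfbi was at 0.849, 336 and 911 CPM with high P2rx3 and at 0, 0 and 27.6 CPM with low P2rx3, with means of 331 ± 261 and 3.497 ± 8.33 CPM, and again 12 of 14 cells lay above all of the others. Mylk4 was at 0, 133 and 616 CPM against 0, 1.65 and 140 CPM. Its means were 217 ± 227 and 12.3 ± 34.5 CPM, with 6 of 14 cells above every P2rx3-low cell, so its groups overlapped more. Ecel1 was expressed in all 14 P2rx3-high cells, at 72.1, 496 and 979 CPM, and in 9 of 16 P2rx3-low cells, at 0, 12.7 and 768 CPM. Its means were 508 ± 221 and 83.8 ± 194 CPM, and only 2 of the 14 cells lay above every P2rx3-low cell.

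Lipn and Ankrd1 had the opposite order. Lipn was at 0, 4.02 and 163 CPM in P2rx3-low cells and at 0, 0 and 16.3 CPM in P2rx3-high cells, with means of 18.9 ± 41.9 and 1.75 ± 4.50 CPM. The 3 cells above all P2rx3-high cells, s3.14, s3.28 and s3.3, had Nefh at 492, 1430 and 1550 CPM. Ankrd1 was at 0, 0 and 140 CPM against 0, 0 and 11.7 CPM, with means of 14.9 ± 35.3 and 1.16 ± 3.162 CPM and 5 of 16 against 1 of 14 expressing cells. In both genes most P2rx3-low cells overlapped the P2rx3-high cells.

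Slc6a4 was found with high and with low P2rx3. It was expressed in 10 of 14 P2rx3-high and 11 of 16 P2rx3-low cells, with medians of 148 and 39.2 CPM and means of 192 ± 184 and 216 ± 427 CPM that differed by less than the SD. Its highest cells, s3.12 at 1442 CPM and s3.5 at 1119 CPM, had P2rx3 at 1.52 and 2.95 CPM. They held 73.9% of the summed CPM of the P2rx3-low cells, whose mean was 135 ± 285 CPM without s3.12 (n = 15 cells) and 64.5 ± 87.2 CPM without both (n = 14 cells). A mean over 4 times as high in the P2rx3-high cells was seen for 1.39% of the 10800 genes expressed in at least 4 of the 30 cells and for 4 of the 7 genes, and the opposite for 2.97% and for 2 of 7. The summed glial markers were 1066 to 6394 CPM in the P2rx3-high and 2177 to 11063 CPM in the P2rx3-low cells, all 10 detected in both. Summed macrophage markers had the opposite order. They were at 11.9 to 329 CPM (median 27.6) in P2rx3-high cells, highest in s3.46, and at 2.85 to 53.0 CPM (median 12.5) in P2rx3-low cells. Of the 10 macrophage markers, 5 were detected in the P2rx3-high and 2 in the P2rx3-low cells. The part of the glial and macrophage transcripts was not tested.

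The levels were low in P2rx3-high cells without high Atf3. In the 5 SNT-side cells with P2rx3 above 500 CPM and low Atf3, none of the 7 genes was expressed, which allows a share of up to 60% of such cells, and their highest means were 2.01 CPM for Mylk4 and 1.26 CPM for Slc6a4. In the 11 control cells with P2rx3 above 500 CPM, the only value past 10 CPM was that of Mylk4 in 1 cell, and the mean of Anxa1 was 0.469 CPM and that of Tgfbi 1.30 CPM.

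**Figure D3:**
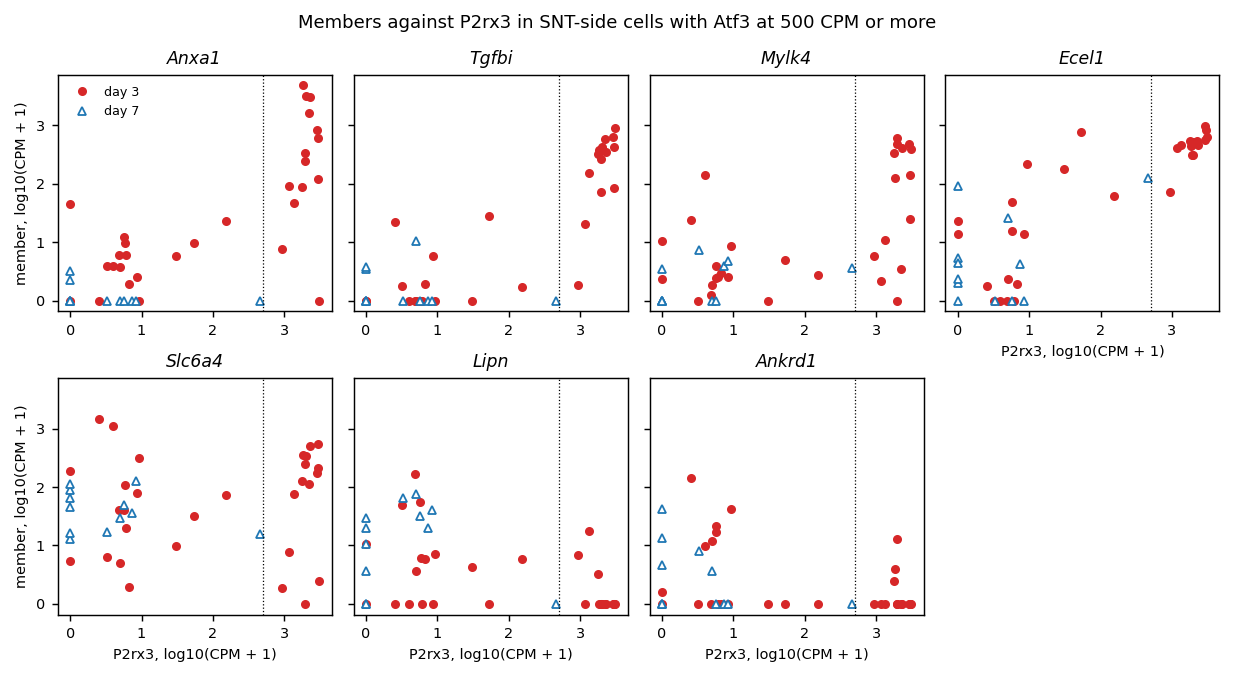
Level of each of the 7 genes against P2rx3, both as log10(CPM + 1), in the 30 day 3 (red circles) and 12 day 7 (open triangles) SNT-side cells with Atf3 at 500 CPM or more; the dotted line is P2rx3 at 500 CPM. Anxa1, Tgfbi and Mylk4 are highest to the right of the line, Lipn and Ankrd1 to its left, Slc6a4 is on both sides, and all day 7 cells lie to the left.

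The number of the 7 genes expressed per cell ranged from 0 to 6 among the 30 high-Atf3 cells of day 3, with a median of 3. The high end was 9 cells with 5 genes and 1 cell with 6, and 1 cell expressed none. P2rx3-high cells expressed a median of 5 and P2rx3-low cells a median of 2. Of the 18 control cells, 16 expressed none of the genes, 1 expressed 1 and 1 expressed 2. All 15 high-Atf3 cells with Anxa1 also expressed Ecel1, which is 65.2% of the 23 Ecel1 cells, and 12 of the 15 expressed Tgfbi, which is 80.0% of the Tgfbi cells as well. Of the 11 cells with Mylk4, 10 expressed Slc6a4 (90.9%, and 47.6% of the 21 Slc6a4 cells) and 10 expressed Tgfbi (66.7% of the Tgfbi cells). No cell expressed both Lipn and Mylk4. The Spearman correlation over the 30 cells was highest for Ecel1 with Tgfbi (0.79) and lowest for Lipn with Tgfbi (-0.55), as a description of cells from 1 sample that share the P2rx3 ranges.

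**Figure D4:**
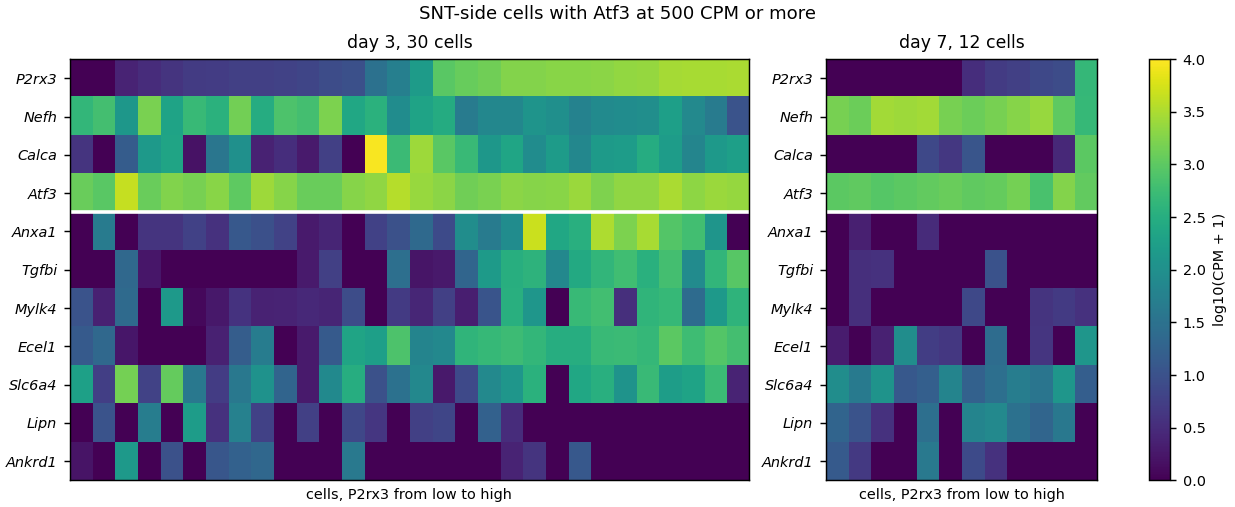
Levels, as log10(CPM + 1), of P2rx3, Nefh, Calca and Atf3 (above the white line) and of the 7 genes (below it) in the SNT-side cells with Atf3 at 500 CPM or more, 30 cells of day 3 and 12 of day 7, each column 1 cell, ordered by P2rx3. The right part of the day 3 panel is bright for Anxa1, Tgfbi, Mylk4 and Ecel1, Lipn and Ankrd1 are bright in single columns of the left part, and the day 7 panel is bright mainly for Slc6a4 and Lipn.

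The cells picked differed from the pooled neurons in this respect. The mean of P2rx3 was 891 CPM over the 41 SNT-side cells and 298 CPM in the pooled SNT-side libraries, and that of Nefh was 336 and 638 CPM. The mean over the cells was 10.7 times the pooled mean for Anxa1, 7.76 times for Tgfbi, 7.267 times for Mylk4, 3.79 times for Ecel1 and 2.03 times for Slc6a4. The mean was instead lower in the cells for Ankrd1, at 0.510 of the pooled mean, and for Lipn, at 0.156. The part of the cell mix in these ratios was not tested. Atf3 was at 1476 CPM in the cells and 1466 CPM in the pooled libraries.

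At day 7, levels of Slc6a4 and Lipn were present in part of the SNT-side cells, and Anxa1, Tgfbi and Mylk4 were near 0. High Atf3 was found in 12 of 33 cells, at 704 CPM or more, with the others at or below 13.9 CPM. A larger share of high-Atf3 than of other cells expressed a given gene for 29.1% of 13222 genes, and for Slc6a4, Lipn, Ecel1 and Ankrd1 of the 7. Slc6a4 was at 11.7, 39.4 and 125 CPM in these 12 cells and was expressed in all of them (interval 73.5% to 100%). In the 21 low-Atf3 cells it did not pass 1.31 CPM, and it had no count in the 14 control cells, where a count of 0 allows a share of up to 21.4%. Expression in high-Atf3 cells and in no other SNT-side cell was seen for 4.04% of the 13222 genes, and for the same 4 of the 7, and in at least 4 high-Atf3 cells and no other for 0.787% of 11188 genes, and for Slc6a4 and Lipn of the 7. The side difference in these cells also gave the choice of the genes, so these counts are again a description and no test.

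Lipn was at 0, 18.9 and 74.9 CPM in the 12 high-Atf3 cells, was expressed in 7 of them (58.3%, 27.7% to 84.8%), and had no count in the 21 other SNT-side cells or the 14 control cells. Its highest cell, s7.28, also held macrophage transcripts that summed to 317 CPM, whose part in the value was not tested, and the next cell was at 63.8 CPM. Ecel1 was at 0, 2.28 and 124 CPM and was expressed in 3 of 12 cells. The highest of these, s7.29, was the only high-Atf3 cell of day 7 with P2rx3 above 10 CPM, at 461 CPM. Ankrd1 was at 0, 0 and 40.96 CPM and was expressed in 2 of 12 cells. Both genes were at 0 in all of the 21 low-Atf3 and 14 control cells.

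Anxa1 did not pass 2.16 CPM in the 12 high-Atf3 cells. The only day 7 cell above 10 CPM was s7.26, at 49.1 CPM, which had Atf3 at 0 and held neutrophil transcripts, and without it the highest SNT-side cell was at 6.49 CPM. Tgfbi did not pass 9.36 CPM, in s7.28, and 2.71 CPM in any other cell, so that no cell of 33 expressed it, which allows a share of up to 9.09%. Mylk4 passed 10 CPM in 2 low-Atf3 cells, at 12.7 and 10.03 CPM, and in no high-Atf3 cell, with SNT-side and control means of 2.30 ± 3.09 (n = 33 cells) and 0.828 ± 1.74 CPM (n = 14 cells). Summed over cells, Slc6a4 was at least 75.2-fold, Lipn at least 36.6-fold, Ecel1 at least 30.7-fold, Ankrd1 at least 7.497-fold, Anxa1 at least 5.00-fold and Tgfbi at least 1.96-fold higher on the SNT side than the floor of the control cells, and the ratio for Mylk4 was 2.59 (1.20 to 6.47). Of the 28 counts of Anxa1, 22 were in s7.26, and without that cell Anxa1 was at least 1.10-fold higher. Of the 11 counts of Tgfbi, 7 were in s7.28, and without it Tgfbi was below the floor. Without s7.28 Lipn was at least 27.7-fold higher. A mean over 4 times as high on the SNT side was seen for 5.38% of 13422 genes.

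The cell mix of the days differed. None of the 12 high-Atf3 cells of day 7 had P2rx3 at 500 CPM, and their Nefh was 1747 ± 750 CPM (n = 12 cells). Against the 16 P2rx3-low cells of day 3, the day 7 means were 50.1 ± 39.2 and 216 ± 427 CPM for Slc6a4, 23.9 ± 25.04 and 18.9 ± 41.9 CPM for Lipn, and 21.2 ± 41.5 and 83.8 ± 194 CPM for Ecel1, each less than 1 SD of the day 3 cells apart. For Ankrd1 they were 5.55 ± 11.8 and 14.9 ± 35.3 CPM, for Mylk4 1.51 ± 2.11 and 12.3 ± 34.5 CPM, for Anxa1 0.281 ± 0.685 and 7.61 ± 11.4 CPM and for Tgfbi 1.21 ± 2.75 and 3.497 ± 8.33 CPM. At day 3 Anxa1, Tgfbi and Mylk4 were highest in P2rx3-high cells with high Atf3. By the cut at 500 CPM, no such cell was sampled at day 7. The cell nearest the cut, s7.29, had P2rx3 at 461 CPM, above the 154 CPM reached by the P2rx3-low cells of day 3. Its Anxa1 and Tgfbi were at 0 CPM and its Mylk4 at 2.65 CPM. This cell also supplied the highest Ecel1 value of the day 7 mean, 124 CPM. No test of day was made. By sex, the 8 high-Atf3 cells from females and the 4 from males had Slc6a4 at 49.8 ± 36.4 and 50.7 ± 50.3 CPM and Lipn at 19.2 ± 21.7 and 33.3 ± 31.98 CPM, in both cases closer than the SD. Both cells with Ankrd1 above 10 CPM were from females.

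Over the 41 SNT-side cells of day 3, the genes whose ranks were most like each of the 7 were found among 11079 genes expressed in at least 5 of the cells. For Slc6a4 these were Tmsb4x (Spearman correlation 0.79), Kif22 and Cacna2d1, the last of which encodes a calcium channel subunit, and over the 33 day 7 cells the correlations were 0.69, 0.75 and 0.78. For Ecel1 they were Itga7 (0.86), Cd109 and Gm6455, with 0.62, 0.61 and 0.65 at day 7. Both sets of cells mix high and low Atf3, with which Slc6a4 correlated at 0.63 and 0.85 and Ecel1 at 0.69 and 0.59. For Anxa1 they were Gm6455 (0.80), Gpr133 and Zbtb38, with values between -0.15 and 0.11 at day 7, where Anxa1 was nearly absent. For Lipn they were Tpbg (0.80) and Bud31, with 0.38 and 0.58 at day 7. For Tgfbi they were Tnnc1 (0.80), Cyth2 and Txndc9, with 0.26, 0.30 and 0.32 at day 7. For Mylk4 they were Cntn2 (0.72), Dusp8 and Srsf11, with 0.05, -0.25 and 0.11 at day 7, and for Ankrd1 Hoxb9 (0.62), Lphn2 and Fam196a, with 0.36, 0.0046 and 0.30. Ankrd1 and Lipn were above 0 in only 10 and 13 of the 41 cells. Within the 30 high-Atf3 cells the most similar gene was Rfng for Slc6a4 (0.81) and Cpn1 for Ecel1 (0.88). Over the 41 cells these were at 0.24 and 0.09. For Lipn the most similar gene was again Tpbg (0.78). P2rx3 was the third most similar gene to Tgfbi within the 30 cells, at 0.85, and was at 0.65 over the 41 cells.

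The relatives and partners of the 7 genes were examined in the pooled neurons, where the quasi-likelihood test of edgeR, adjusted over 13509 genes by Benjamini-Hochberg, called 8.83% of genes higher and 7.1% lower on the SNT side, with a median log2 change of 0.02 over all genes. Called genes had a log2 change beyond 1 at an adjusted p under 0.05. Because the 3 libraries of a side come from 1 lysate, these p-values measure technical spread. Levels below are the mean CPM after TMM scaling ± SD over 3 libraries.

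Of 16 tested genes of serotonin and monoamine handling other than Slc6a4, 2 were called higher and 5 lower, with a median log2 change of -0.68. Htr1b, a serotonin receptor, was at 0 in all control libraries and at 7.45 ± 3.376 CPM on the SNT side (adjusted p = 0.00281). Htr4 fell from 51.5 ± 9.02 to 7.93 ± 3.504 CPM (log2 change -2.71 ± 0.36 SE, adjusted p = 1.80e-07), and Htr3b, a subunit of the serotonin-gated channel, from 16.2 ± 5.30 to 0.771 ± 0.674 CPM (log2 change -4.08 ± 0.77, adjusted p = 6.29e-05). Htr2a was at 11.6 ± 1.40 and 3.256 ± 1.17 CPM (adjusted p = 0.0344) and Ddc, a decarboxylase in serotonin synthesis, at 3.372 ± 3.3599 and 0 CPM (adjusted p = 0.0345). Both calls rest on few counts. That of Htr2a was lost without control library 1, 2 or 3 or SNT library 1 or 3 (adjusted p from 0.0512 to 0.111) and that of Ddc without control library 2 or any SNT library (0.0766 to 0.0972). Without control library 3, Ddc fell below the mean of 1 CPM needed for a test.

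Of the 3 tested relatives of Lipn, Lipk rose from 1.12 ± 1.94 to 14.9 ± 4.47 CPM (log2 change 3.89 ± 0.83, adjusted p = 0.000375 by edgeR), and Lipo1 from 15.6 ± 7.96 to 35.6 ± 6.32 CPM (log2 change 1.13 ± 0.36, adjusted p = 0.0164). Control reads of Lipk were in control library 3 alone, without which its fitted log2 change was 7.222, which is no bound, and without control library 2 it was 3.238. The call of Lipo1 was lost without control library 3 (adjusted p = 0.0985) or SNT library 1 (0.0845). Lipa, the lysosomal member, was at 97.3 ± 10.2 and 88.9 ± 7.00 CPM and was not called. Of the 3 tested relatives of Ecel1, the neprilysin gene Mme fell from 32.7 ± 5.08 to 3.399 ± 2.15 CPM (log2 change -3.14 ± 0.47, adjusted p = 1.33e-06; log2 change -3.81 without SNT library 3), and Ece1 and Ece2 were not called.

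Of 10 tested annexins and partners other than Anxa1, 3 were called higher and none lower. S100a11, a calcium-binding partner of Anxa1, rose from 10.6 ± 4.33 to 85.6 ± 16.4 CPM (log2 change 3.05 ± 0.32, adjusted p = 5.32e-10), and S100a10, the partner of Anxa2, from 640 ± 98.8 to 1803 ± 215 CPM (1.49 ± 0.13, adjusted p = 2.36e-12). Anxa10 was at 0 in all control libraries and at 7.296 ± 2.47 CPM on the SNT side (adjusted p = 0.00214). Of 8 tested genes of the muscle ankyrin repeat and YAP list other than Ankrd1, none was called higher, and Cyr61, a YAP target like Ankrd1, fell from 7.91 ± 3.426 to 0.307 ± 0.532 CPM (adjusted p = 0.00353), with its SNT-side reads in library 2 alone.

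Of 14 tested genes of the TGF-beta pathway, fasciclin proteins and integrins other than Tgfbi, 4 were called higher and 1 lower, with a median log2 change of 0.38. The receptors Tgfbr1 and Tgfbr2 rose from 8.05 ± 3.148 to 42.2 ± 19.9 CPM (log2 change 2.34 ± 0.41, adjusted p = 2.08e-05) and from 6.42 ± 1.73 to 27.4 ± 6.43 CPM (2.10 ± 0.45, adjusted p = 0.000358). The integrin subunits Itgb5 and Itgb1 rose, with log2 changes of 3.185 ± 0.53 (adjusted p = 9.37e-06) and 1.49 ± 0.16 (adjusted p = 4.86e-10), and Itgb3 fell, with -2.48 ± 0.48 (adjusted p = 9.71e-05). Without control library 2 the log2 change of Itgb5 was 4.21. Of 5 tested myosin light chain kinase genes and targets other than Mylk4, none was called in either direction.

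Marker lists moved as well. Of the markers tested, edgeR called 2 of 7 neuron markers and 4 of 7 markers of large myelinated neurons higher, and 3 of 5 markers of nonpeptidergic, 2 of 4 of peptidergic and 3 of 3 of low-threshold C-fibre neurons lower. Of glial markers 1 of 10 was called higher and 4 lower, of macrophage markers 2 of 3 higher, of fibroblast markers 1 of 5 lower and of endothelial markers 1 of 2 higher, while the 1 tested muscle marker was not called and no neutrophil marker passed the filter on low values. The macrophage and endothelial calls rest on Csf1r, Cx3cr1 and Cldn5, which were at 0 in control libraries and at 4.97, 3.87 and 3.72 CPM on the SNT side. The call of Csf1r was lost without SNT library 1 (adjusted p = 0.0718), that of Cx3cr1 without any control library or SNT library 2 (0.0767 to 0.1) and that of Cldn5 without any control library (0.0797 to 0.0901). Without SNT library 3, Cx3cr1 and Cldn5 did not pass the filter on low values and were not tested. Cldn5 was at 7.453 CPM in that library and at 1.873 and 1.843 CPM in SNT libraries 1 and 2. All 7 genes of the injury list, which includes Atf3, were called higher. The part of these shifts in the levels of the members was not tested.

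The pattern of the 7 genes in pooled neurons was shared by few others. Of the 13509 genes tested in pooled neurons, 56 (0.415%) had a control mean under 2 CPM and an SNT mean of at least 20 CPM, and 126 had an SNT mean of at least 10 CPM. Slc6a4, Ecel1, Lipn and Anxa1 were among the 56, at 78.2, 57.5, 53.9 and 36.7 CPM, while Tgfbi (15.6 CPM), Ankrd1 (12.9 CPM) and Mylk4 (11.7 CPM) were below 20 CPM. The 5 highest of the 56 were Nts, the neuropeptide neurotensin, at 731 ± 15.8 CPM, Prokr2, a prokineticin receptor, at 185 ± 12.3 CPM, Star at 176 ± 16.4 CPM, Flnc at 142 ± 17.8 CPM and Akap2 at 120 ± 20.2 CPM. In the kept day 3 cells, the control mean was 16.4 CPM for Prokr2 and 18.9 CPM for Akap2, against 25.1 and 109 CPM on the SNT side, so these genes were not near 0 in control cells. All 4 members in the group were below these 5 in CPM, a measure that is not comparable between genes of different length.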

How the data were processed

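The deposited tables hold expected counts per gene, which the authors made with Bowtie2 and RSEM on RefSeq exons of mouse build mm9 without ribosomal RNA. Although the tables are named TPM, their column totals differ, and the values were treated as estimated counts. CPM was computed as count / column total x 1e6. Strand of counting is not given in the sources used here, so reads of Anxa1 and of an overlapping gene on the other strand (18 counts in all libraries) cannot be told apart. Slc6a4 and Mylk4 are also overlapped by a gene on the other strand (Gm12343 and Gm27342), and Lipn by a miRNA gene on its own strand (Gm23334). These genes have no values in the data, so any reads of theirs cannot be told apart either. The side of each pooled library was taken from its column name. An identifier line in the table pairs the sides the other way, and using it would reverse every pooled difference.

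Rounded pooled counts were tested in R 4.3.3 with edgeR 4.0.16 and limma 3.58.1 (quasi-likelihood, TMM, mean CPM of 1 or more, prior count 0.125), a step tested on simulated data. Cells were described with Python 3.11.15, pandas 2.3.3, numpy 2.4.6 and scipy 1.17.1, and plots were made with matplotlib 3.10.9. DESeq2 1.42.0, other scalings, filters and thresholds, and leaving out libraries were alternatives. The members and gene lists were chosen with earlier results of these data known. Named genes are the members and Atf3, up to 5 called genes per list by size of log2 change, the 3 most similar genes per member (at 10 CPM or more in at least 5 cells, with 1 gene not reported here) and the 5 highest genes with the same pattern. Lipa, Ece1, Ece2 and the markers were named with their values seen. Promoter letters are from RefSeq, GRCm38.p6.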

Additional observations from a re-analysis of the deposited data

Results flagged for a closer look

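The 11 day 3 cells that the authors removed entered no comparison above, and in 6 of the 7 genes their highest level was above that of every kept control cell. In 1 removed SNT-side cell with 401682 counts, Slc6a4 and Ankrd1 were at 14.9 CPM each (6 counts each), against at most 5.56 and 0 CPM in kept control cells, and Mylk4 was also at 14.9 CPM, against 10.9 CPM. In 1 removed control cell with 223967 counts, Lipn and Ecel1 were at 8.93 CPM each (2 counts each), against 0 and 3.191 CPM, and Anxa1 was at 58.0 CPM (13 counts), against 18.0 CPM. The same control cell had Slc6a4 and Mylk4 at 13.4 CPM each and Tgfbi at 17.9 CPM, so that 4 of the 7 genes passed 10 CPM in it. With so few counts these levels are imprecise, and they carry no replicate. The removed cells also differed from the kept cells in Apoe, a glial marker. It was at 30201 to 82496 CPM in the 11 removed cells and at most at 10781 CPM in kept cells. In the removed control cell with 223967 counts, Apoe was at 64163.5 CPM. The part of glial transcripts in the levels of the 7 genes was not tested.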

How the results depend on the processing

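In pooled neurons, leaving out 1 library at a time gave 1063 to 1184 higher and 818 to 964 lower calls, against 1193 and 961, and all 7 members stayed separated. Scaling by library size alone gave 978 higher and 1265 lower calls, with a median log2 change over all genes of -0.14 in place of 0.02, so that lower calls then outnumbered higher ones and Lipo1, at a log2 change of 0.97, was no longer called. DESeq2 gave 953 and 808 calls. Once the mean of each side was subtracted from the log2 levels, what remained correlated at 0.06, -0.02 and -0.01 between same-numbered libraries. Pairs with different numbers were at -0.050 to 0.059, so the numbers gave no sign of a pairing. A replicate block gave 1136 higher and 872 lower calls and lost those of Ddc, Htr2a, Cx3cr1 and Cldn5 (adjusted p = 0.13, 0.065, 0.0997 and 0.105). Thinning to the smallest library lost those of Ddc, Htr2a, Csf1r and Cx3cr1 (0.185, 0.0884, 0.189 and 0.0546), and Cldn5 was then not tested. Under DESeq2 the calls of Ddc, Htr2a, Lipo1, Cx3cr1 and Cldn5 were lost (adjusted p = 0.074, 0.0602, 0.0569, 0.115 and 0.117). An SNT mean of at least 10 in place of 20 CPM gave 126 in place of 56 genes with the pattern. At day 7, 1 member had a higher median on the SNT side, while 7 had a higher mean, and with 50 CPM as the level of expression 3 in place of 6 were expressed in a larger share of SNT-side cells. No named list gene changed sign in the pooled fits. The P2rx3 limit and the sets without single cells were chosen after the data were seen. Shallow cells, at 261351 counts and up, limit what can be said of genes near 10 CPM.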
